A study of Homo sapiens with 4 samples.

Results

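The 10 immediate early genes EGR1, FOS, JUN, JUNB, JUND, ATF3, IER2, IER3, DUSP1 and KLF10 were described in the human leukaemia cell line K562 after knockdown of the histone demethylase PHF8. They were chosen by name, with earlier results of these data known. All 10 were among the 11213 gene names listed, through 20 of the 32551 transcripts. There were 2 shPHF8 libraries, of the genotype labelled PHF8 knockdown, from K562 cells transduced with lentivirus carrying a hairpin against PHF8, and 2 shControl libraries, of the genotype labelled WT, from K562 cells transduced with lentivirus carrying a control hairpin. Both groups were exposed to polybrene and were selected with puromycin at 2 µg/mL, given after 72 hours. K562 carries the BCR-ABL1 fusion, whose kinase signals through the RAS-ERK cascade. It is unclear from the labels if numbers 1 and 2 of the shPHF8 libraries stand for replicates or for hairpins, or if any library was a culture of its own, so p-values measure only the spread between these libraries.

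Immediate early genes are transcribed within minutes of a growth or stress signal, from promoters that need no new protein synthesis. ERK activates the factors ELK1 and SRF, which bind together at serum response elements, and kinases downstream of ERK and p38 activate CREB at cyclic AMP response elements. Most of the messages are short-lived, in part because AU-rich elements in their 3′ untranslated regions recruit decay factors. EGR1 is a zinc finger transcription factor; FOS and the 3 JUN proteins pair as the transcription factor AP-1; ATF3 is a stress-induced factor of the related ATF family; DUSP1 dephosphorylates MAP kinases.

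Values are in TPM (transcript abundance per length, with every library summing to 1000000), so that levels can be compared between genes. TPM keep no record of read numbers, so the depth behind each value is unknown and only the spread between libraries measures precision. PHF8 itself was at 6.06 and 6.42 TPM in the shPHF8 libraries, against 25.9 and 22.5 TPM in the shControl libraries (log2 fold change -1.80 ± 0.16, SE; limma with Benjamini-Hochberg adjusted p = 0.0643). The targeted gene thus lay lower in both libraries labelled as its knockdown. The libraries carried the erythroid markers of K562, all 10 of which were listed. In the same libraries the summed TPM of those erythroid markers was 13792 and 13141 in shPHF8, against 8712 and 9244 in shControl. Most of that sum was globin (HBG1, HBG2, HBE1 and HBZ); the erythroid factor GATA1 was at 311.2 and 307.0 TPM in shPHF8, against 339.2 and 342.7 TPM in shControl, and EPOR overlapped between the groups. Granulocyte and monocyte markers were tested for 5 of 12 genes and summed to 83.1 and 77.9 TPM in shPHF8, against 142.5 and 161.2 TPM in shControl; MPO, ELANE, PRTN3, CSF1R, CD14, FCGR3B and S100A8 are not analysed here. The 4 megakaryocyte markers listed, of 8, summed to 49.99 and 52.3 TPM in shPHF8, against 22.9 and 27.3 TPM in shControl. Most of that gap was in TUBB1, at 35.4 and 34.9 TPM in shPHF8, against 11.03 and 13.2 TPM in shControl, while ITGB3 overlapped between the groups. The 2 lymphocyte markers tested, of 10, summed to 15.6 and 10.98 TPM in shPHF8, against 30.4 and 34.4 TPM in shControl. The 3 stromal and endothelial markers tested, of 8, summed to 302.6 and 305.8 TPM in shPHF8, against 507.5 and 500.3 TPM in shControl, nearly all of it VIM. No marker of these lists that was present was at 0 in all 4 libraries. All 4 libraries are labelled K562, so the name of a list does not mean that cells of that type were present. In bulk RNA, fewer cells with a message and less of it per cell cannot be told apart. The part these markers have in the results below was not tested.

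The start regions of 4 genes are shown because they hold the elements, or can be set beside those that do, through which the ERK and cyclic AMP pathways are known to reach this class of gene. Each is the 250 bases before the RefSeq start site in GRCh38.p14, another build than that of the TPM table. The windows of FOS, JUN, IER2 and ATF3 are not shown, since they overlap an annotated exon or, for a second window of ATF3, precede no main transcript; IER3 and KLF10 are named only. Capitals mark the motifs searched on both strands: the CArG box (the core of a serum response element), TGACGTCA (a full cyclic AMP response element), TGACGCAA, TGACTCA (an AP-1 site), GCGGGGGCG (an EGR site) and TATAAA.
EGR1, chr5:138465229-138465478, plus strand: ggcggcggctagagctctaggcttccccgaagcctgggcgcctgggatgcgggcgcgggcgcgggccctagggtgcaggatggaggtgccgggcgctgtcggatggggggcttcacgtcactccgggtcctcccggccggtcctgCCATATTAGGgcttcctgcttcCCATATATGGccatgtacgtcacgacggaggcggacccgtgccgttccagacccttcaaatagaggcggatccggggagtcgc
DUSP1, chr5:172771196-172771445, minus strand: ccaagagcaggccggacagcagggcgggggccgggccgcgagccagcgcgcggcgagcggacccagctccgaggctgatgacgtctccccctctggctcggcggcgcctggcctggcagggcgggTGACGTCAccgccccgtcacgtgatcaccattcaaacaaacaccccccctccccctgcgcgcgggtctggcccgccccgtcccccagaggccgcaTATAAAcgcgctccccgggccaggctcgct
JUNB, chr19:12791236-12791485, plus strand: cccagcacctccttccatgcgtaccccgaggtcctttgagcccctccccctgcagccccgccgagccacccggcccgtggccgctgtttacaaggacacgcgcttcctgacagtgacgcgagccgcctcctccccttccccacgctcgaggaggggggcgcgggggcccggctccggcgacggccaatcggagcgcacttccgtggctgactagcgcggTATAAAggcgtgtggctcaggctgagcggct
JUND, chr19:18281623-18281872, minus strand: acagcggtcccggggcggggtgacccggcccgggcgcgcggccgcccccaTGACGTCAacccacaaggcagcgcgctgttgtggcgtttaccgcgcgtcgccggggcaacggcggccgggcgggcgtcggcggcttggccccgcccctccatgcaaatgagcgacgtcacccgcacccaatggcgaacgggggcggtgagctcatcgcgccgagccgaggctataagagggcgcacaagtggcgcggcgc

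EGR1 held 2 CArG boxes, CCATATTAGG at 105 to 96 bases and CCATATATGG at 83 to 74 bases before the start. A CArG box was present in 1.16% of the 35114 windows of the same length, and of the 9 windows found for 8 of the 10 genes only that of EGR1 had one. TGACGTCA was found in DUSP1, at 125 to 118 bases, and in JUND, at 200 to 193 bases, against 1.65% of all windows. TATAAA was found in DUSP1 at 30 to 25 bases, in JUNB at 31 to 26 bases and in FOS at 33 to 28 bases. It was also found in 1 window of ATF3, the one that precedes no main transcript, at 230 to 225 bases. Of all windows 10.7% held it. TGACGCAA, TGACTCA and GCGGGGGCG were in none of the 9 windows, against 0.48%, 4.2% and 4.72% of all windows. A further motif, TGACATCA, was added after the windows had been seen; it was found in JUN and in 1 window of ATF3, against 2.38% of all windows. The shorter TGACG, likewise added, which overlaps every TGACGTCA and lies within TGACGCAA, was in the windows of DUSP1, EGR1, FOS, IER2, JUN, JUNB and JUND, against 21.2% of all windows. These are matches of letters only, and the absence of a match says nothing about a factor. Bases outside the windows were not searched. A gene without a match in its window, such as FOS for the CArG box, may hold a match further upstream.

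The immediate early genes of the shPHF8 libraries did not all lie on the same side of the shControl libraries. EGR1, JUN, DUSP1 and KLF10 were higher in both shPHF8 libraries than in either shControl library by 1.40 to 1.56 times in the mean, while ATF3, IER2 and IER3 were lower in both, at 0.593 to 0.614 times the shControl mean. JUND was also higher in both libraries, by less, and JUNB and FOS overlapped between the groups. None of the 10 passed limma with Benjamini-Hochberg adjustment over the 10972 genes tested, where 0 genes, or 0%, passed at 0.05 and the smallest adjusted p was 0.0554.

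At an unadjusted limma p under 0.05, 4 of the 10 genes were higher and 3 were lower. The background shares over all genes tested were 9.9% higher (1086 genes) and 12.1% lower (1328 genes). Because the 10 were chosen with earlier results of these data known, these counts are a description and not a test of the set. Both shPHF8 libraries lay above both shControl libraries in 5 of the 10 genes, against 26% of all genes tested, and below both in 3, against 29.3% of all genes tested. The median absolute log2 fold change of the 10 was 0.55, against 0.24 over all genes, and their median standard error was 0.13, against 0.17. The signed median of the 10 was 0.24, against -0.02 over all genes. Their TPM added up to 1019.7 and 999.0 in shPHF8 and to 868.5 and 946.7 in shControl. The largest part of each sum was EGR1, at 413.0 and 404.2 TPM in shPHF8, against 306.8 and 278.0 TPM in shControl. The sums thus do not describe the other genes.

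**Figure D1:**
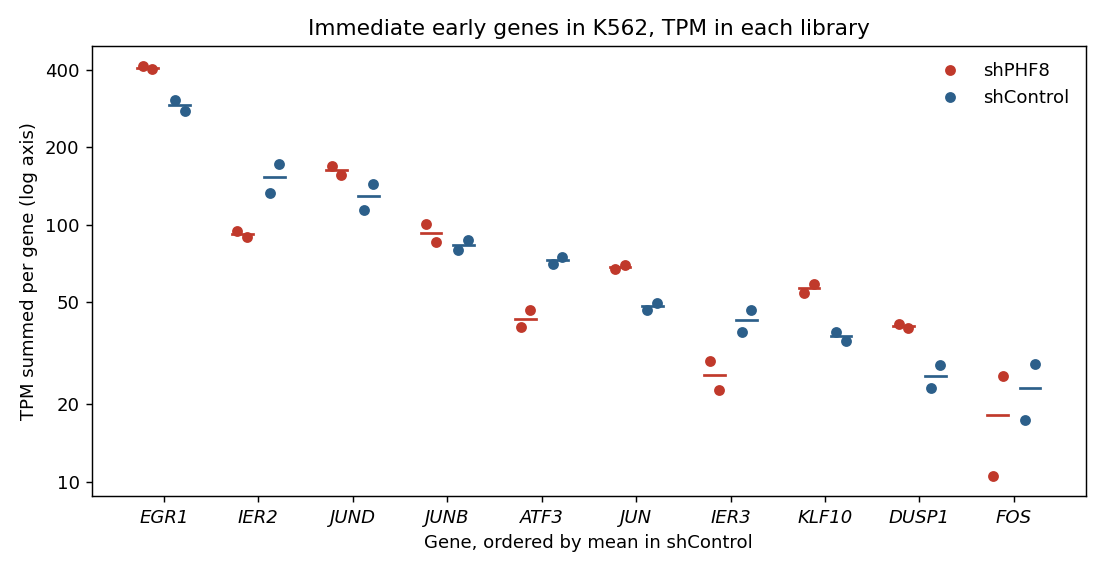
TPM summed per gene in each of the 4 libraries, on a log axis, for the 10 immediate early genes; points are libraries, horizontal bars are group means. The shPHF8 points of EGR1, JUND, JUN, KLF10 and DUSP1 lie above both shControl points, those of IER2, ATF3 and IER3 lie below both, and those of JUNB and FOS overlap them.

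The zinc finger factors EGR1 and KLF10 were both higher in the shPHF8 libraries. EGR1 (ENSG00000120738) was at 413.0 and 404.2 TPM in the shPHF8 libraries, against 306.8 and 278.0 TPM in the shControl libraries. The groups did not overlap, and every library placed EGR1 above at least 95.4% of the genes tested, the highest of the 10. Fold changes are differences of mean log2(TPM + 1), shPHF8 minus shControl. That of EGR1 was 0.48 ± 0.07 (SE, n = 2 each; 95% confidence interval 0.28 to 0.69), and limma gave an unadjusted p of 0.00253 and a Benjamini-Hochberg adjusted p of 0.0894. KLF10 (ENSG00000155090), a repressor known for its induction by TGF-beta, was at 54.5 and 58.6 TPM in shPHF8 and at 38.2 and 35.4 TPM in shControl. The difference, 0.61 ± 0.11 (SE) on the log2 scale, was larger than the gap of 0.10 between the libraries of either group (limma, unadjusted p = 0.00425, Benjamini-Hochberg adjusted p = 0.103).

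Among the AP-1 subunits JUN was higher in shPHF8, JUNB and FOS overlapped, and JUND lay between. JUN (ENSG00000177606), the most strongly transactivating of the 3 JUN proteins, was at 67.4 and 69.6 TPM in shPHF8 and at 46.6 and 49.8 TPM in shControl. Its log2 fold change was 0.50 ± 0.09 (SE), against gaps of 0.05 and 0.09 within shPHF8 and shControl (limma, unadjusted p = 0.00563, Benjamini-Hochberg adjusted p = 0.105). JUND (ENSG00000130522), the subunit that is usually present in resting cells, was at 168.9 and 156.7 TPM in shPHF8, against 114.6 and 143.8 TPM in shControl. The groups did not overlap, but the gap of 0.32 between the shControl libraries was nearly the size of the log2 fold change of 0.34 ± 0.14 (SE), whose 95% confidence interval ran from -0.03 to 0.71 (limma, Benjamini-Hochberg adjusted p = 0.258). Without shControl replicate 2 the difference was 0.50, and without shControl replicate 1 it was 0.18. JUNB (ENSG00000171223), which can oppose JUN at AP-1 sites, was at 100.4 and 85.7 TPM in shPHF8 and at 79.9 and 87.6 TPM in shControl. The second shPHF8 library lay between the shControl libraries, and the 95% confidence interval of the log2 fold change ran from -0.18 to 0.47 (limma, Benjamini-Hochberg adjusted p = 0.521).

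FOS (ENSG00000170345), which cannot bind DNA without a JUN partner, had the lowest group means of the 10 and the widest gap between libraries in both groups, though it lay above IER3 in shPHF8 replicate 2 and above DUSP1 in shControl replicate 2. It was at 10.6 and 25.8 TPM in the shPHF8 libraries and at 17.3 and 28.9 TPM in the shControl libraries. The gap between libraries on the log2 scale was 1.21 within shPHF8 and 0.70 within shControl, both larger than the log2 fold change of -0.41 ± 0.50 (SE). The 95% confidence interval, from -1.78 to 0.96, left room for a change of either sign (limma, Benjamini-Hochberg adjusted p = 0.668), and the value turned to 0.19 without shPHF8 replicate 1. The TPM of the 3 JUN genes added up to 336.7 and 312.0 in shPHF8, against 241.2 and 281.2 in shControl. JUN made up 20.02% and 22.3% of that sum in shPHF8, against 19.3% and 17.7% in shControl, and JUNB made up 29.8% and 27.5% in shPHF8, against 33.1% and 31.2% in shControl. The share of JUND was 50.2% in both shPHF8 libraries, inside the 47.5% and 51.1% of the shControl libraries.

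DUSP1 (ENSG00000120129), the phosphatase that switches off p38, JNK and ERK, was at 41.0 and 39.6 TPM in shPHF8 and at 23.2 and 28.5 TPM in shControl. The groups did not overlap, and the log2 value was 0.63 ± 0.15 (SE), its 95% confidence interval reaching from 0.23 to 1.02 (limma, unadjusted p = 0.0114, Benjamini-Hochberg adjusted p = 0.131). Without shPHF8 replicate 1 the unadjusted limma p was 0.0597.

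Of the 3 genes with an unadjusted p under 0.05 and lower values, ATF3 had the smallest standard error. ATF3 (ENSG00000162772) was at 39.9 and 46.5 TPM in the shPHF8 libraries, against 70.6 and 75.1 TPM in the shControl libraries. The log2 difference of -0.74 ± 0.12 (SE) had a 95% confidence interval between -1.07 and -0.41 (limma, unadjusted p = 0.00305, Benjamini-Hochberg adjusted p = 0.0939). IER2 (ENSG00000160888), a small nuclear protein, was at 94.5 and 89.5 TPM in shPHF8 and at 132.9 and 172.7 TPM in shControl. Its log2 fold change was -0.71 ± 0.15 (SE), and the shControl libraries were 0.38 apart, against 0.08 for the shPHF8 libraries (limma, unadjusted p = 0.00825, Benjamini-Hochberg adjusted p = 0.121). IER3 (ENSG00000137331), a stress-induced regulator of cell survival, was at 29.5 and 22.8 TPM in shPHF8 and at 38.3 and 46.8 TPM in shControl. Its log2 fold change of -0.69 ± 0.19 (SE) had an unadjusted limma p of 0.0209 and a Benjamini-Hochberg adjusted p of 0.164. The unadjusted limma p was 0.105 without shControl replicate 2 and 0.0814 without shPHF8 replicate 2, and it was 0.193 with the leading transcript in place of the sum (log2 fold change -0.47). Exons of IER2 and IER3 overlap an antisense gene, and those of JUNB overlap HOOK2 on the opposite strand; whether the libraries were stranded is not given in the sources used here, so their values may include reads of those genes.

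**Figure D2:**
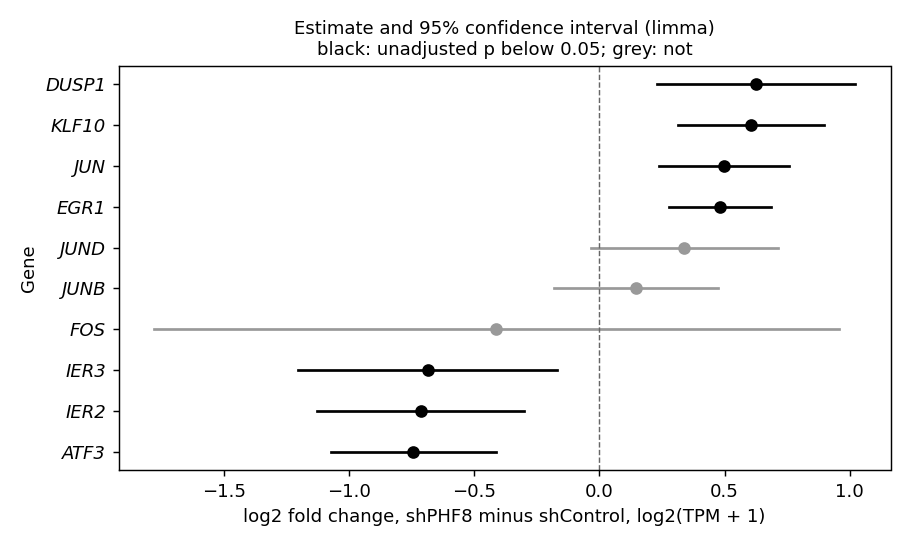
Differences of mean log2(TPM + 1), shPHF8 minus shControl (x axis), per gene (y axis), with 95% limma confidence intervals; black marks an unadjusted p under 0.05 and grey the others. The intervals of DUSP1, KLF10, JUN and EGR1 lie above 0 and those of IER3, IER2 and ATF3 below 0, while the interval of FOS runs from -1.78 to 0.96.

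The order of abundance differed between the groups in its middle part. In the shPHF8 libraries the order of the means was EGR1, JUND, JUNB, IER2, JUN, KLF10, ATF3, DUSP1, IER3 and FOS, from 408.6 to 18.2 TPM. In that order JUNB and IER2 (93.0 and 92.0 TPM), ATF3 and DUSP1 (43.2 and 40.3 TPM), and IER3 and FOS (26.2 and 18.2 TPM) overlapped between libraries. In the shControl libraries it was EGR1, IER2, JUND, JUNB, ATF3, JUN, IER3, KLF10, DUSP1 and FOS, from 292.4 to 23.1 TPM. There IER2 and JUND (152.8 and 129.2 TPM), JUN and IER3 (48.2 and 42.6 TPM), and DUSP1 and FOS (25.9 and 23.1 TPM) overlapped. ATF3 thus lay below JUN and KLF10 in both shPHF8 libraries and above both genes in the 2 shControl libraries.

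Behind these gene sums, EGR1, JUN, JUNB, JUND and DUSP1 each had 1 listed transcript, and FOS, ATF3, IER2, IER3 and KLF10 had 2 to 4. Transcript lengths and exons below are those of GENCODE release 29. Where transcripts of a gene share exons, their TPM are estimates of how the shared reads divide between them. IER2-001 and IER2-002 varied between libraries far more than the sum of IER2. The 2-exon transcript IER2-001 was listed at 0 in both shPHF8 libraries and was at 96.9 and 9.55 TPM in the shControl libraries. The single-exon transcript IER2-002 was at 88.5 and 83.3 TPM in shPHF8 and at 26.5 and 156.9 TPM in shControl. IER2-002 therefore made up 93.7% and 93.0% of the gene in shPHF8, against 19.97% and 90.9% in shControl, so shControl replicate 1 was the library that stood apart. The remaining transcript, IER2-003, was at 5.92 and 6.26 TPM in shPHF8 and at 9.48 and 6.21 TPM in shControl.

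All 3 IER2 transcripts have the same 669 coding bases, so as annotated they differ in untranslated sequence only. IER2-001 is 2085 bases long and 94.2% of it, 1965 bases, lies within the 2934 bases of IER2-002, of which that stretch is 67.0%. Their starts are 1542 bases apart. Whether the split between them reflects the cells or the assignment of shared reads was not tested. With the leading transcript in place of the sum, the log2 fold change of IER2 was 0.40, opposite in sign (limma, Benjamini-Hochberg adjusted p = 0.854). Over the table, 249 transcripts were listed at 0 in both shPHF8 libraries while above 1 TPM in both shControl libraries, and 241 showed the reverse.

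KLF10 also differed in isoforms between libraries of 1 group. KLF10-001 was at 23.3 and 9.33 TPM in shPHF8, against 38.03 and 9.45 TPM in shControl. KLF10-002, which starts 1527 bases away and has 1407 coding bases, against 1440 in KLF10-001, was at 31.2 and 49.3 TPM in shPHF8, against 0.143 and 26.0 TPM in shControl. KLF10-001 made up 42.7% and 15.9% of the gene in shPHF8, against 99.6% and 26.7% in shControl. The isoforms share 2753 exonic bases, and the sum of KLF10 varied far less than either of them. With KLF10-002 in place of the sum, the log2 fold change was 2.86 and the unadjusted limma p 0.194.

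In ATF3 the full-length ATF3-001 carried the difference. It was at 33.4 and 38.5 TPM in shPHF8, against 70.1 and 72.5 TPM in shControl. The short transcript ATF3-009 went the other way, at 4.38 and 6.59 TPM in shPHF8, against 0.0502 and 0.0448 TPM in shControl. ATF3-009 thus made up 10.98% and 14.2% of the gene in shPHF8, against 0.07% and 0.06% in shControl. It is 581 bases long, all of them exonic in ATF3-001, and has 372 coding bases, against 543 in ATF3-001. Its TPM thus depend on how reads of shared bases were divided between the transcripts. The difference in ATF3-009 was not tested.

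For IER3 the intron-holding IER3-002 was at 0.166 and 5.14 TPM in shPHF8, against 7.005 and 14.1 TPM in shControl. The spliced IER3-001 was at 29.4 and 17.6 TPM in shPHF8, against 31.3 and 32.7 TPM in shControl. The spliced form in the first shPHF8 library was thus near the shControl values, and the lower sum there came with less IER3-002. For FOS the full-length FOS-001 was at 7.61 and 13.7 TPM in shPHF8, against 12.5 and 21.0 TPM in shControl. The shorter FOS-011 was at 0.962 and 8.01 TPM in shPHF8 and at 2.87 and 4.58 TPM in shControl, so the second shPHF8 library held both the lowest share of FOS-001, 53.0%, and the highest of FOS-011, 31.1%.

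**Figure D3:**
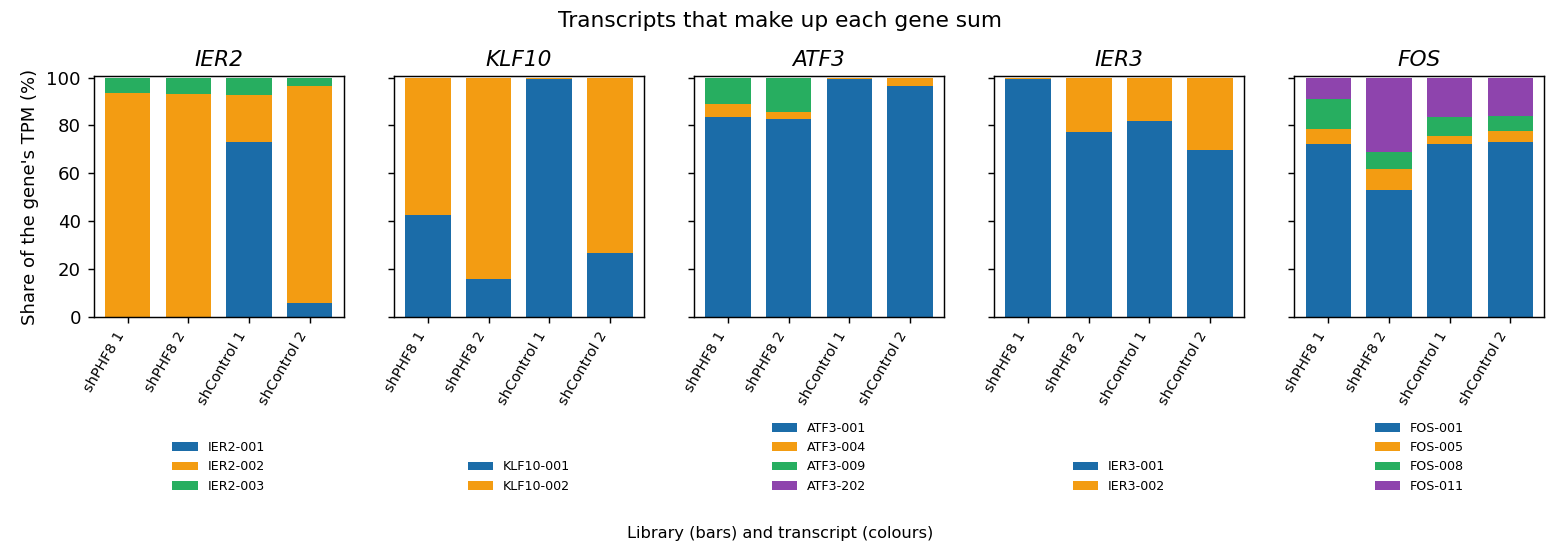
Share of the TPM of a gene in each listed transcript, in percent, for the 5 genes with more than 1 transcript; each bar is a library and each colour a transcript. IER2-002 makes up over 90% in every library but shControl replicate 1, and KLF10-001 makes up 99.6% there. ATF3-009 makes up 10.98% and 14.2% in the shPHF8 libraries, against 0.07% and 0.06% in the shControl libraries. The shares are estimates where transcripts share exons.

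A different leading transcript in 2 libraries was frequent in the table. Of the 7739 genes tested that had more than 1 transcript, the leading transcript differed between the 2 shPHF8 libraries in 24.5%, between the 2 shControl libraries in 24.5%, and between a shPHF8 and a shControl library in 24.8% to 25.7%. Both shares within a group lay below all 4 across groups, and the difference was not tested. IER2 and KLF10 were among those that differed between the shControl libraries. FOS, ATF3 and IER3 had the same leading transcript in all 4 libraries.

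The genes that induce, partner with or restrain the immediate early genes were read from the same fit. Their lists, too, were chosen with earlier results of these data known, so the shares below are descriptions only. Over the 6 lists together 10 of 103 genes tested were higher and 17 lower at the unadjusted limma p, or 9.71% and 16.5%, against 9.9% and 12.1% of all genes. The counts were 3 and 10 without shPHF8 replicate 2, 5 and 8 without shPHF8 replicate 1, and 6 and 8 without shControl replicate 2. Of 30 other primary response genes 19 were tested, and at an unadjusted limma p under 0.05 3 were higher and 1 lower in shPHF8, together 21.1% against 22.0% of all genes. CYR61, a secreted matrix protein, was at 13.7 and 16.5 TPM in shPHF8, against 8.60 and 9.78 TPM in shControl. The stress genes GADD45A, at 186.7 and 201.5 TPM in shPHF8 and 149.2 and 166.8 TPM in shControl, and PPP1R15A, at 280.5 and 298.2 TPM in shPHF8 and 256.7 and 251.7 TPM in shControl, were also higher. IER5, a relative of IER2, was at 37.9 and 37.1 TPM in shPHF8, against 48.3 and 46.6 TPM in shControl. The FOS relatives FOSB and FOSL1 and the factor MYC overlapped between the groups. FOSL2, another relative, averaged under 1 TPM and was not tested; it was at 0.522 and 0.457 TPM in shPHF8, against 1.12 and 1.43 TPM in shControl. FOSB was at 3.13 and 5.93 TPM in shPHF8 and at 1.01 and 6.82 TPM in shControl, and MYC was at 13.0 and 11.4 TPM in shPHF8 and at 15.9 and 11.5 TPM in shControl.

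Upstream, 26 genes of the ERK route to SRF and CREB were tested, of which 4 were higher and 2 lower at the unadjusted threshold, together 23.1%, near the 22.0% of all genes. The GTPase NRAS was at 176.0 and 175.8 TPM in shPHF8, against 130.7 and 115.3 TPM in shControl. ATF1, a CREB relative, was at 82.8 and 79.0 TPM in shPHF8, against 56.2 and 43.4 TPM in shControl. RPS6KA3, a kinase that acts on CREB, was also higher. MAP2K1, the kinase directly above ERK, was at 44.2 and 42.8 TPM in shPHF8, against 61.1 and 53.7 TPM in shControl, and CREM was lower as well. SRF itself was at 47.1 and 44.9 TPM in shPHF8, inside the 49.5 and 39.7 TPM of shControl, and ELK1 at 102.6 and 95.6 TPM in shPHF8, against 106.5 and 113.8 TPM in shControl.

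JNK and p38 form the stress kinase branch, which feeds JUN and ATF3. Of its 16 genes tested 6 were lower and 1 higher at the unadjusted threshold, or 37.5% and 6.25%, against 12.1% and 9.9% of all genes. The median log2 fold change was -0.26, against -0.02 over all genes. MAPKAPK2, the main kinase below p38, was at 94.8 and 90.0 TPM in shPHF8, against 120.9 and 127.8 TPM in shControl, and MAPK12, a p38 isoform, at 12.1 and 12.3 TPM in shPHF8, against 22.9 and 19.5 TPM in shControl. MAPKAPK3, MAP2K7, MAPK8IP3 and MAP2K3 were the other genes lower at that threshold. The member that was higher was the upstream kinase MAP3K5, at 21.3 and 22.0 TPM in shPHF8, against 15.3 and 15.2 TPM in shControl. MAPK14, another p38 isoform, overlapped between the groups, at 21.5 and 57.3 TPM in shPHF8 and 32.7 and 33.2 TPM in shControl. The JNK genes MAPK8 and MAPK9 lay lower in both shPHF8 libraries without passing the unadjusted threshold.

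Of 14 MAP kinase phosphatases and feedback inhibitors other than DUSP1, 4 were lower and 1 higher at the unadjusted threshold, or 28.6% and 7.14%, against 12.1% and 9.9% of all genes. DUSP7, a phosphatase of ERK, was at 8.24 and 8.59 TPM in shPHF8, against 14.99 and 13.8 TPM in shControl, and DUSP9 at 7.38 and 5.82 TPM in shPHF8, against 10.5 and 10.4 TPM in shControl. SPRY2, an inhibitor of RAS-ERK signalling, was at 9.85 and 8.19 TPM in shPHF8, against 14.96 and 12.6 TPM in shControl. The EGR1 corepressors parted: NAB2 was at 16.2 and 15.6 TPM in shPHF8, against 20.9 and 25.2 TPM in shControl, whereas NAB1 was higher in shPHF8. Of 18 AP-1 and ATF partners 1 was higher and 3 lower, together 22.2%, near the 22.0% of all genes. The higher one was DDIT3, the stress factor CHOP, at 146.5 and 136.0 TPM in shPHF8, against 103.7 and 103.8 TPM in shControl, and the lower ones were BATF2, NFE2L1 and JDP2, a repressor of AP-1. ATF4, which induces both DDIT3 and ATF3 under stress, overlapped between the groups, at 642.2 and 623.6 TPM in shPHF8 and 623.7 and 634.1 TPM in shControl.

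**Figure D4:**
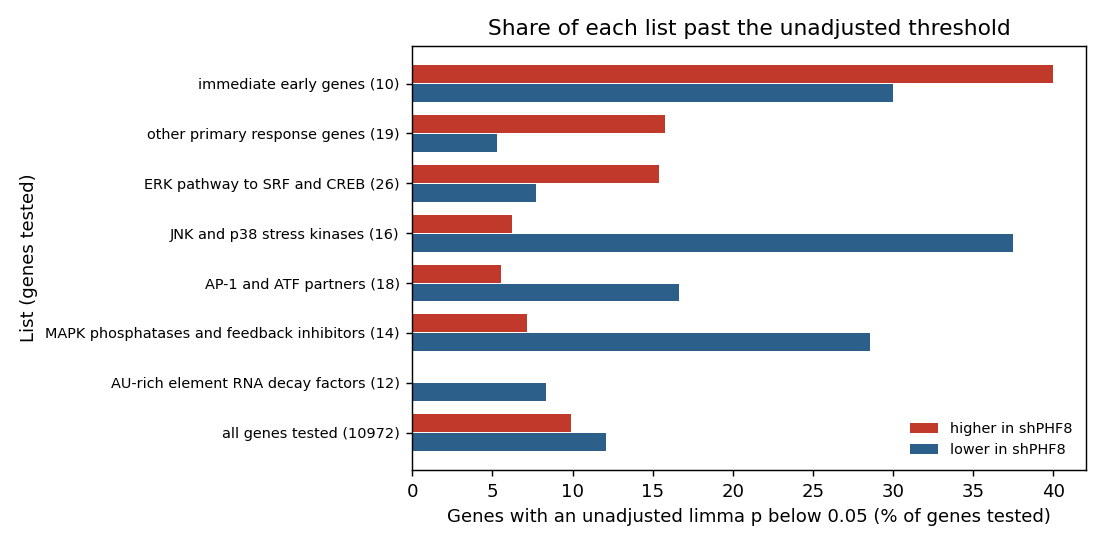
Percentage of the tested genes of each list with an unadjusted limma p under 0.05, higher (red) or lower (blue) in shPHF8 than in shControl, with the number tested in brackets. Of the 10 immediate early genes 4 are higher and 3 lower; the stress kinases stand at 6.25% and 37.5%, beside 9.9% and 12.1% over all genes tested.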

How the data were processed

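RNA of 4 K562 libraries was measured, 2 shPHF8 and 2 shControl, grouped by the titles in the labels. The authors deposited TPM per transcript and library, per the file headers; each column sums to 1000000. Per the submitters' processing notes HISAT2 2.0.4, StringTie 1.2.3 and build hg19 were used; what each did, the annotation and strandedness were not stated. TPM hold no depth, and as shares they depend on all other transcripts. The 4 further deposited columns were not used.

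Transcripts of 1 gene name were added up, and log2(TPM + 1), which understates changes of low genes, was taken. The 10972 genes averaging 1 TPM or more were fitted in limma 3.58.1 (R 4.3.3) with a mean-variance trend, two-sided, with Benjamini-Hochberg adjustment over all of them, calling genes at 0.05, on 2 residual and 2.16 prior degrees of freedom. The fit was tested on simulated data. All 10 immediate early genes passed the filter. An exact permutation test of 2 against 2 libraries cannot give a two-sided p under 0.333, so none was run. Transcripts were described without a test, matched by identifier to GENCODE 29. Promoter windows came from RefSeq (GRCh38.p14), found for 8 of the 10 genes. Named genes were the 10, PHF8, and in each other list those with an unadjusted p under 0.05, up to 4 of them with values; any other gene was picked with its values in view. A gene that the rule names is not reported here. The members and lists were chosen with earlier results of these data known. Alternatives were the pseudocount, the filter, the scaling, the trend, a replicate block, the leading transcript only, and leaving out each library. Python 3.11.15, pandas 2.3.3 and matplotlib 3.10.9 were used.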

Additional observations from a re-analysis of the deposited data

How the results depend on the processing

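With the number of each library in the labels as a replicate block, the counts were 4 members higher and 3 lower at the unadjusted limma p, 0 genes called over all genes, and 10 lower members of the other lists, against 17 in the fit without the block. The numbers are not known to pair libraries, and deviations of same-numbered libraries had a correlation of -0.0289 across genes. Of 120 values of the 10 genes under 12 alternatives, 118 kept their sign and 2 turned. IER2 turned to 0.40 with the leading transcript only. FOS ran from -1.02 to 0.19 when libraries were left out, and the cause of the FOS change was not tested. Many of the kept signs were fixed in advance, so their number does not measure robustness. The filter, the trend and the replicate block leave the fold change itself unchanged. For genes with 1 transcript the leading transcript is the sum. Leaving out a library cannot turn the sign of a gene whose groups did not overlap. With the leading transcript only, 21 genes were called over all genes by limma, 0 of them among the 10, the lower members at the unadjusted p were 1 instead of 3, and the lower members of the other lists were 11. Quantile normalization gave 37 called genes, also 0 of them among the 10. When libraries were left out in turn, the higher members numbered 3 to 5, the lower members 2 to 3, the higher members of the other lists 3 to 8, against 10, and the lower ones 8 to 13, lowest without shPHF8 replicate 2 (3 higher) and without shPHF8 replicate 1 or shControl replicate 2 (8 lower), and 0 genes were called over all genes. Leaving out a library leaves 1 in its group, whose spread is then taken from the other group. Scaling moved the median of all genes by at most 0.02 on the log2 scale. EGR1, JUN and ATF3 had an unadjusted limma p under 0.05 in all 12 alternatives, with log2 fold changes from 0.41 to 0.55, from 0.45 to 0.55 and from -0.97 to -0.64. What depth limits could not be assessed, since TPM hold none.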

Other observations

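The 3′ untranslated regions of the immediate early genes were searched for AUUUA, written ATTTA in the reference, the core of the AU-rich elements that bind decay factors such as ZFP36. In the leading transcript of each gene, as annotated in GENCODE 29 and on the sense strand, 9 of the 10 had at least 1 match, against 69.8% of the 3029 genes with a region of 500 to 1346 bases, the range of the 10. The longer TATTTAT was found in 6 of the 10, against 21.9% of those genes. IER3 had 6 matches of ATTTA, FOS 5, DUSP1 4, ATF3, JUN and KLF10 3 each, JUNB 2, EGR1 and JUND 1, and IER2 none. Genes with higher and genes with lower values in shPHF8 thus both included some with 3 or more matches. Of 12 decay factors tested 1, ZFP36L2, which destabilises such messages, had an unadjusted limma p under 0.05, a share of 8.33%, against 22.0% of all genes. It was at 61.6 and 61.9 TPM in shPHF8, against 85.99 and 92.1 TPM in shControl (log2 fold change -0.52 ± 0.09, SE; limma with Benjamini-Hochberg adjusted p = 0.0974). ZFP36 was at 28.8 and 29.1 TPM in shPHF8, against 25.4 and 28.1 TPM in shControl, and ELAVL1, which stabilises such messages, at 77.5 and 82.9 TPM in shPHF8, against 74.8 and 81.0 TPM in shControl.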
